A study of Homo sapiens with 3 samples.

Results

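The importin alpha and beta genes encode the receptors of classical nuclear protein import. The 8 genes are KPNA1 to KPNA7, which encode importin alpha proteins, and KPNB1, which encodes importin beta. They were taken by gene symbol from the array's platform annotation, and the family was chosen by the log2 levels of KPNA5, which were higher with both WDR5 siRNAs than with control siRNA. Of the 8 genes, 7 had a named probe set, 1 each. KPNA2 had none and was not analysed here. The 7 are among 14884 named genes on the array.

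Importin alpha is an adaptor. It binds the nuclear localization signal of a cargo protein through its armadillo repeats and binds importin beta, which carries the complex through the nuclear pore. In the nucleus RAN loaded with GTP releases the cargo, and the exporter CSE1L returns importin alpha to the cytoplasm. Importin alpha proteins fall into subfamilies that differ in the cargoes they prefer: KPNA1, KPNA5 and KPNA6 form one, KPNA3 and KPNA4 another, and KPNA2 and KPNA7 the last.

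The cells were BE(2)-C, a human neuroblastoma cell line with MYCN amplification. They were treated for 40 hours with WDR5 siRNA-1, with WDR5 siRNA-2 or with control siRNA, and each treatment was measured on 1 HuGene-2_0-st array. WDR5 is a scaffold protein of the COMPASS methyltransferases, which mark histone H3 at active promoters. With 1 array per treatment there is no replicate error and no test, every ratio sets 1 array against another, and the number of arrays limits the precision.

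The deposited values were read as log2 levels from their range, 1.34 to 14.87. A level depends on its own probe set, so differences are taken only for the same gene between arrays, and the marker ranges and background rows below give only a rough scale. WDR5 stood at a log2 level of 7.90 after siRNA-1 and 7.90 after siRNA-2, against 9.46 with control siRNA, or 2.95-fold lower with each siRNA. The WDR5 siRNA values were identical to the last deposited digit. The array has 23 background rows, each of probes with 1 GC content, and the highest of their values was 9.26. The WDR5 values with both siRNAs lay within the range of these rows, so the size of the WDR5 fold is uncertain. The 10 neuroblastoma markers analysed here, HAND2, GATA3 and DBH among them, had levels of 7.29 to 12.5 on each array. The 11 measured of 21 Schwann, stromal, leukocyte, endothelial and epithelial markers ranged from 4.80 to 8.14 with siRNA-1, from 4.80 to 8.04 with siRNA-2 and from 4.29 to 8.04 with control siRNA. In bulk RNA, fewer cells that express a gene and less of its RNA per cell cannot be told apart.

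Genes whose mean level over the 3 arrays was at or above the median over genes, 6.78, were kept, which left 7442 genes and 6 of the 7 measured importins. These 6 were above 6.78 on every array. KPNA7 was not kept. Counts are of genes that differed from control by 1.5-fold or more, upward with both WDR5 siRNAs or downward with both. Both ratios use the same control array.

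KPNA5 had log2 levels of 9.75 after siRNA-1 and 9.75 after siRNA-2, against 8.30 with control siRNA. Both WDR5 siRNA arrays were above the control array, and the 2 values were identical to the last deposited digit. The log2 ratio was 1.45 with each siRNA, or 2.73-fold higher. The WDR5 siRNA values were above all 23 background rows and the control value was above 18 of them. The control level thus lay within the range of the background rows, and the size of the fold is uncertain. KPNA5 encodes an adaptor that carries cargo with a nuclear localization signal to importin beta. Its ratios are the reason the family was chosen and are given as a description.

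Among the kept genes KPNA5 had the 6th highest ratio with siRNA-1 and the 5th highest with siRNA-2. By the smaller of its ratios it was 2nd of the 1343 genes that were higher with both siRNAs by any amount. It was the 1 importin at 1.5-fold with both siRNAs. The background of that count was 0.618% of kept genes higher and 0.847% lower, 46 and 63 genes, and nothing is read from the count because the choice of the family rests on it. Identical values on the WDR5 siRNA arrays stood in 21.5% of kept genes, most often with the control array tied too. At 1.5-fold with both siRNAs, such a tie stood in 1 of the 46 higher genes, KPNA5, and in 5 of the 63 lower genes, WDR5 among them.

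**Figure D1:**
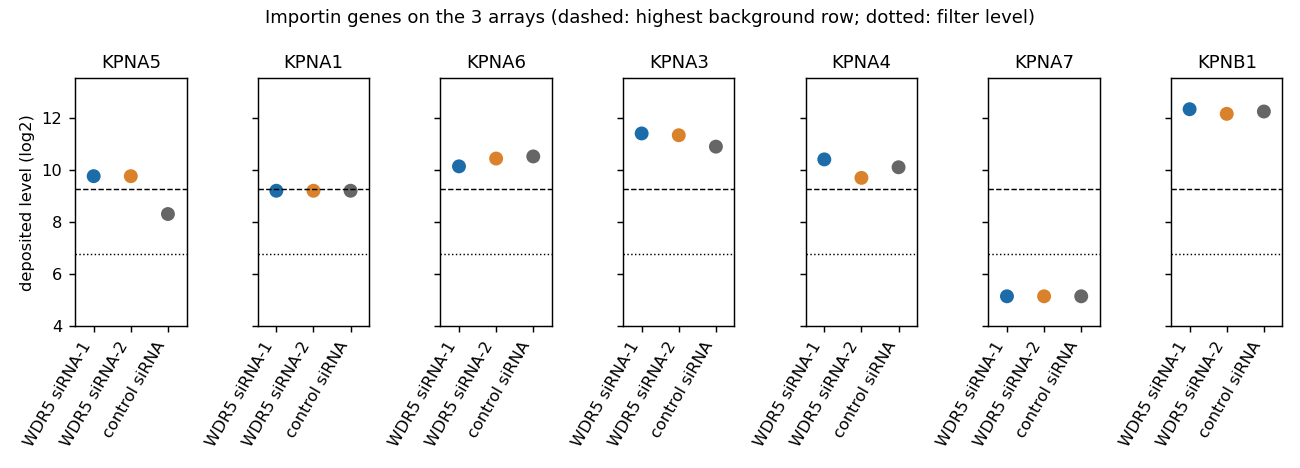
Deposited log2 levels of the 7 measured importin genes (y axis) on the WDR5 siRNA-1, WDR5 siRNA-2 and control siRNA arrays (x axis, 1 point per array). The dashed line marks the highest background row (9.26) and the dotted line the filter level (6.78). KPNA5 stood at 9.75 with each WDR5 siRNA and at 8.30 with control siRNA, while KPNA1 and KPNA7 had 1 value on all 3 arrays.

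The deposited values of the closest relatives of KPNA5 did not show its ratio. KPNA1, an adaptor of the same subfamily, had a log2 level of 9.19 after siRNA-1, 9.19 after siRNA-2 and 9.19 with control siRNA. The 3 values were identical, as in 14.9% of kept genes, so the table shows no difference at all for KPNA1. The level was above 21 of the 23 background rows and thus within their range on every array. Such ties arise in many rows of the table, and a tie does not show that the transcript was unchanged in the cells.

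KPNA6, the remaining adaptor of this subfamily, had log2 levels of 10.13 after siRNA-1 and 10.43 after siRNA-2, against 10.51 with control siRNA. Both WDR5 siRNA arrays were below the control array. The log2 ratios were -0.38 and -0.08, both under 1.5-fold in size. The ratios within the subfamily therefore ran from 1.45 for KPNA5 to -0.38 for KPNA6 with siRNA-1, and from 1.45 for KPNA5 to -0.08 for KPNA6 with siRNA-2.

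In the subfamily of KPNA3 and KPNA4, KPNA3 was on the same side of control as KPNA5 and KPNA4 differed between the siRNAs. KPNA3 and KPNA4 encode adaptors known for the import of RCC1, the chromatin-bound exchange factor of RAN. KPNA3 had log2 levels of 11.39 after siRNA-1 and 11.32 after siRNA-2, against 10.88 with control siRNA. Both WDR5 siRNA arrays lay above the control array, and they were close to each other. The log2 ratios were 0.51 and 0.44, or 1.42-fold and 1.35-fold higher. KPNA3 ranked 102nd of the 1343 genes higher with both siRNAs. It did not reach 1.5-fold. At 1.3-fold, which 1.8% of kept genes reached upward with both siRNAs, KPNA3 was counted beside KPNA5.

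KPNA4 lay above control with one siRNA and below it with the other. Its log2 level was 10.40 with siRNA-1 and 9.69 with siRNA-2, against 10.09 with control siRNA. The control array thus lay between the WDR5 siRNA arrays. The log2 ratios to control were 0.30 and -0.41. Between the siRNAs the difference was 0.71, or 1.63-fold with siRNA-1 on the higher side, and KPNA4 was the 1 importin at 1.5-fold in that comparison. Of all kept genes, 8.86% were at least 1.5-fold apart between the siRNAs. With 6 importins kept, 1 gene that far apart is not set apart from that background.

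KPNA7, known for its expression in oocytes and early embryos, had a level of 5.15 on all 3 arrays, above 12 of the 23 background rows. KPNB1 encodes importin beta, the carrier that all importin alpha adaptors use. Its log2 level was 12.32 with siRNA-1 and 12.14 with siRNA-2, against 12.23 with control siRNA. The 3 arrays lay close together, with log2 ratios of 0.09 and -0.09, and with quantile normalization the siRNA-2 ratio turned to 0.0095.

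By direction, 2 of the 6 kept importins were higher with both WDR5 siRNAs by any amount (KPNA5 and KPNA3), 1 was lower with both (KPNA6), 2 went in opposite directions (KPNA4, and KPNB1 except with quantile normalization) and KPNA1 showed no difference. Small differences and ties turn with the scaling: 4 were higher with both under quantile normalization, where KPNA1 and KPNB1 joined KPNA5 and KPNA3, and 3 under median centring. Of all kept genes, 18% were higher with both, 22.3% lower with both and 25.2% opposite. KPNA5 is higher with both by the choice of the family, so nothing is read from the importin counts beside these shares. The median log2 ratio of the 6 kept importins was 0.19 for siRNA-1 and -0.04 for siRNA-2 (0.03 with quantile normalization), and over all kept genes it was 0 with each siRNA. The medians of the 6 include KPNA5, whose ratios chose the family, so nothing is read from their distance to 0. At 1.5-fold with 1 siRNA, KPNA5 was the 1 importin counted with siRNA-1 (6.84% of kept genes in either direction) and with siRNA-2 (6.19%). The choice of the family rests on the same ratios of KPNA5, so nothing is read from these counts either.

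**Figure D2:**
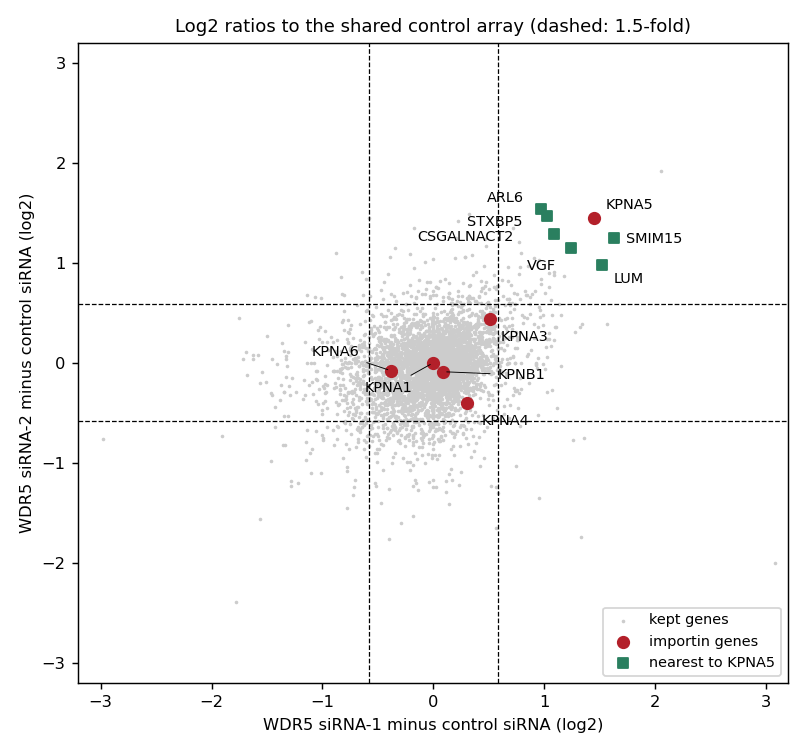
Log2 ratio of WDR5 siRNA-1 to control (x axis) and of WDR5 siRNA-2 to control (y axis) for the 7442 kept genes (grey), the 6 kept importin genes (red) and the 6 genes nearest to KPNA5 (green squares). Dashed lines mark 1.5-fold. Both axes share the control array, so points lean along the diagonal without any effect. KPNA5 lies at 1.45 on both axes and the other importins lie inside the dashed lines.

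The genes with the pattern most like that of KPNA5 were found by the Euclidean distance between pairs of log2 ratios to control, over the 2 ratios of 7441 other kept genes. The nearest was SMIM15, a small integral membrane protein gene, at a distance of 0.27, with log2 levels of 10.40 and 10.03 with siRNA-1 and siRNA-2, against 8.78 with control siRNA. VGF, a neuropeptide precursor gene, followed at 0.37, with log2 ratios of 1.24 and 1.15. CSGALNACT2, of chondroitin sulfate synthesis, lay at 0.40 and STXBP5, a regulator of vesicle fusion, at 0.43. LUM (lumican, a matrix proteoglycan) at 0.48 and ARL6, a small GTPase gene of cilia, at 0.49 completed the 6. No listed nuclear transport gene was among them. This follows from the counts, since apart from KPNA5 none was at 1.5-fold with both siRNAs, and nothing is read from it. Of the 6 nearest genes, all but STXBP5 had control levels, 7.91 to 8.88, within the range of the background rows. The size of their folds is thus uncertain, as for KPNA5.

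The study sets WDR5 beside N-Myc, a factor that binds the E-box CACGTG, so the promoters of importins with both levels and a RefSeq sequence were searched for these letters. The motif reads the same on both strands. KPNA4, KPNA5, KPNA7 and KPNB1 had no promoter sequence in the source used here and were not searched. The 250 bases before the start site are shown for KPNA3, which was higher with both siRNAs, for KPNA1, which had 1 value on all arrays, and for KPNA6, which was lower with both. Sequences are from RefSeq on GRCh38.p14, written 5′ to 3′ along the gene's strand, with the E-box in capitals.
KPNA3 (chr13:49792683-49792932, minus strand): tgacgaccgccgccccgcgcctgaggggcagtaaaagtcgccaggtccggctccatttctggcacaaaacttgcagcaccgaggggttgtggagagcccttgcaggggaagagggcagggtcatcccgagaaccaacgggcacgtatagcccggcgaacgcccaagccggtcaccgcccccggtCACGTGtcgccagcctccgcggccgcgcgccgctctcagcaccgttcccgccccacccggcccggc
KPNA1 (chr3:122514940-122515189, minus strand): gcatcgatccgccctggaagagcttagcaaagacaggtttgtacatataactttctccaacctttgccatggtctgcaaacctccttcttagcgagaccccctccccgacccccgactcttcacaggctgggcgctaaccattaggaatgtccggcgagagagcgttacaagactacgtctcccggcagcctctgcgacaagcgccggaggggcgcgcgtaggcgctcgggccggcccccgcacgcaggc
KPNA6 (chr1:32107806-32108055, plus strand): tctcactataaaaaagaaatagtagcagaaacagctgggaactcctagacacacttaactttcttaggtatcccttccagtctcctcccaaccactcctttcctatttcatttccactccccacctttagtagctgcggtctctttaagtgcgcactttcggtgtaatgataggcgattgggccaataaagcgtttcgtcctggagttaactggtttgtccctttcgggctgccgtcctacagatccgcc

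The KPNA3 window held 1 CACGTG, which ended 60 bases before the start site. The KPNA1 and KPNA6 windows held 0. The motif stood in this window in 6.34% of all 35116 RefSeq promoters searched, and among the 5986 kept genes with a promoter 9.17% did. A match is a description of the letters and no evidence of binding.

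The genes beside each importin on its chromosome were compared next, taking the nearest 2 on each side with a named probe set. Annotated genes without a named probe set were passed over. Among these genes, KPNA5 lies on chromosome 6 between ZUP1, a deubiquitinase gene, and VGLL2, a transcription cofactor gene. Between KPNA5 and ZUP1 lay 0 annotated genes, between KPNA5 and VGLL2 8, and between KPNA5 and GOPC 15. ZUP1 had log2 levels of 6.42 after siRNA-1 and 6.38 after siRNA-2, against 6.61 with control siRNA, lower with both where KPNA5 was higher. RSPH4A, of the radial spokes of cilia, had 5.81 on both WDR5 siRNA arrays, an exact tie, against 5.57 with control siRNA. VGLL2 had 6.23 on all 3 arrays. GOPC, a Golgi scaffold gene beyond VGLL2, had 9.99 and 9.96 against 9.59 with control siRNA, with log2 ratios of 0.40 and 0.37. ZUP1, RSPH4A and VGLL2 were below the filter level. No neighbour of KPNA5 reached 1.5-fold with either siRNA, against 6.84% of kept genes with siRNA-1 and 6.19% with siRNA-2. With GOPC alone kept, nothing is read from that count.

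The nearest named array gene before KPNA1 on chromosome 3 is WDR5B, a close paralog of WDR5. WDR5B had log2 levels of 8.13 after siRNA-1 and 7.48 after siRNA-2, against 7.80 with control siRNA. The WDR5 siRNA arrays lay on opposite sides of the control array, with ratios of 0.32 and -0.33. KPNA3 on chromosome 13 stood among genes that did not follow it. SPRYD7 had ratios of -0.37 and -0.46, TRIM13 of 0.02 and -0.58, and EBPL of 0.19 and -0.26. Beside KPNA4, TRIM59 had ratios of 0.19 and -0.31, and SCARNA7, a small Cajal body RNA gene that lies within the span of KPNA4, had -0.02 and 0.01. Of the 28 neighbours of measured importins, 19 were kept, and 0 of these were at 1.5-fold with either siRNA against control (6.84% of kept genes with siRNA-1, 6.19% with siRNA-2).

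**Figure D3:**
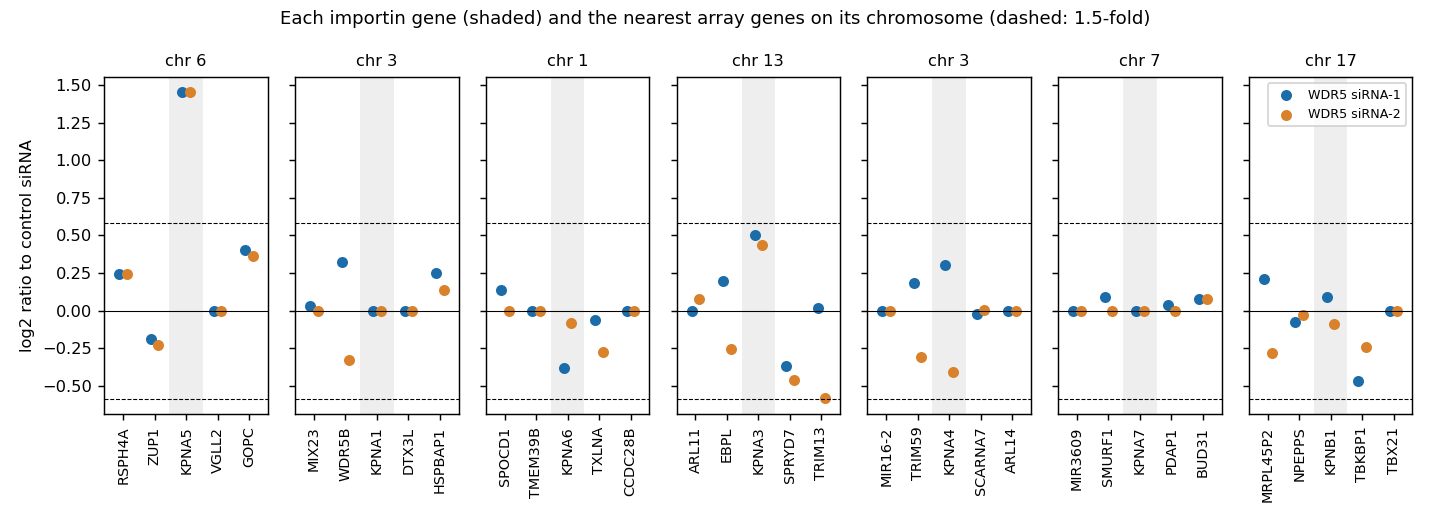
Log2 ratio to control siRNA (y axis) of each measured importin gene (shaded) and the nearest 2 named array genes on each side. Genes are in order of their start on the chromosome (x axis, not to scale), with WDR5 siRNA-1 in blue and WDR5 siRNA-2 in orange. Dashed lines mark 1.5-fold. KPNA5 lies at 1.45 with both siRNAs, and its neighbours lie between -0.23 and 0.40.

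The rest of the import and export machinery was examined from lists written from general knowledge. Of 59 listed genes, 50 were measured and all 50 were kept. None of the 50 was at 1.5-fold with both siRNAs, against 1.46% of kept genes in either direction. By any amount, 8 were higher with both, 13 lower with both, 12 opposite and 17 had a ratio of exactly 0 with at least 1 siRNA. With quantile normalization 17 were higher with both, 13 lower and 20 opposite, and with median centring 19, 13 and 18. The median log2 ratio of the 50 was 0 with each siRNA.

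Of the import receptors related to importin beta, 12 of 12 were kept. RANBP6 encodes a relative of the import receptor IPO5. It had log2 levels of 10.42 after siRNA-1 and 9.29 after siRNA-2, against 9.97 with control siRNA. IPO11, which imports ubiquitin-conjugating enzymes, had 10.36 and 9.48, against 10.18 with control siRNA. Both genes were above control with siRNA-1 and below it with siRNA-2, as was KPNA4, and siRNA-1 exceeded siRNA-2 by 2.19-fold and 1.84-fold in them. IPO7, an importer of ribosomal proteins and histones, went the other way between the siRNAs. Its log2 ratios were -0.84 and -0.06, and it is named after its values were seen. TNPO2, a transportin gene, was 1.39-fold and 1.12-fold higher, and RANBP17 had log2 ratios of -0.17 and -0.38.

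Of the 7 export receptors, 5 were kept, and XPO1 and XPOT were not analysed here. Of the 5, 0 reached 1.5-fold with either siRNA, against 6.84% of kept genes with siRNA-1 and 6.19% with siRNA-2. With 5 genes, a count of 0 is not set apart from that background. XPO4, an exporter of translation and signalling factors, had log2 levels of 10.75 after siRNA-1 and 10.75 after siRNA-2, against 10.24 with control siRNA, or 1.42-fold higher with each. Its WDR5 siRNA arrays were nearly level with each other and above the control array, as for KPNA3. XPO5, the exporter of microRNA precursors, had ratios of 0.15 and 0.08, XPO6, the actin exporter, of -0.07 and 0.16, and XPO7 of -0.38 and -0.04. CSE1L, which recycles importin alpha, was chosen after its values were seen. Its log2 level was 12.95 with siRNA-1 and 12.96 with siRNA-2, against 12.96 with control siRNA.

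Of the 7 genes of the RAN cycle, 5 were kept. RANGAP1, the GTPase activator of RAN, stood at 10.39 and RANBP1 at 10.11 on all 3 arrays. NUTF2, which imports RAN itself, had ratios of -0.09 and -0.15, and RANBP3 of 0.15 and -0.17. RANGRF, a RAN-binding guanine nucleotide release factor gene chosen after its values were seen, had ratios of -0.52 and 0. SNUPN, the snurportin adaptor of small nuclear ribonucleoproteins, stood at 8.30 on all 3 arrays. RAN and RCC1 were not analysed here.

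The nuclear pore complex had 27 kept genes of 31 listed. GLE1, an mRNA export factor at the pore, had log2 levels of 9.03 after siRNA-1 and 8.68 after siRNA-2, against 9.50 with control siRNA, or 1.39-fold and 1.76-fold lower. NUP58, of the central channel, had 8.05 with siRNA-1 and 9.57 with siRNA-2, against 9.15 with control siRNA. Its log2 ratios were -1.10 and 0.42, below and above control. NUP210, a membrane nucleoporin named after its values were seen, had log2 ratios of -0.89 and 0.12, also below and above control. NDC1, another membrane nucleoporin, was 1.24-fold lower with each siRNA, and SEH1L was 1.56-fold and 1.18-fold higher. Between the siRNAs, 5 of the 50 transport genes were at least 1.5-fold apart, against 8.86% of kept genes: RANBP6 and IPO11 were higher with siRNA-1, and IPO7, NUP58 and NUP210 were higher with siRNA-2.

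**Figure D4:**
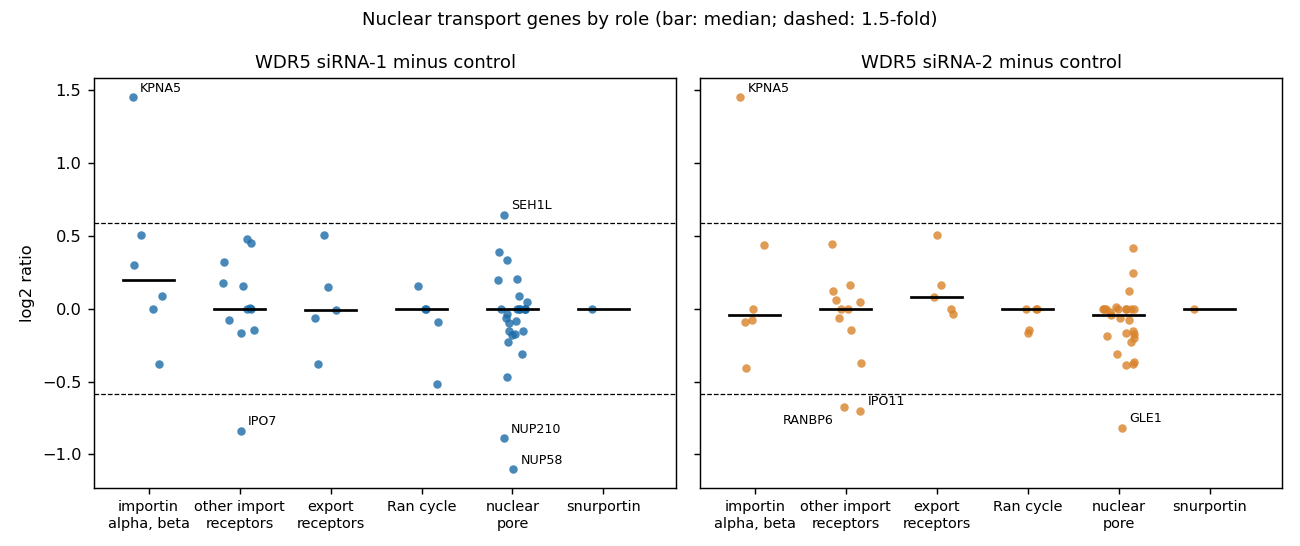
Log2 ratio of WDR5 siRNA-1 (left) and WDR5 siRNA-2 (right) to control siRNA for the kept genes of 6 nuclear transport lists (x axis), 1 point per gene with the median as a bar. Dashed lines mark 1.5-fold and genes beyond them are named. KPNA5 is the 1 gene beyond 1.5-fold in both panels.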

How the data were processed

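The deposited value table holds 53617 rows, 1 per probe set, and 1 column for each of the 3 arrays. The file states no scale, and the authors' deposited values were taken as log2 because of their range, and the array medians were 5.79, 5.79 and 5.81 for WDR5 siRNA-1, WDR5 siRNA-2 and control siRNA. MAS5 is named without a role, per the submitters' processing notes. Its other steps are not given in the sources used here, and no scaling was added. Values were identical on all 3 arrays in 37.1% of rows, where every ratio is 0, and the cause of these ties was not tested.

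Rows were named through the platform annotation, which gave 16098 rows a single symbol, 0 rows several and 37519 rows none here. All 16098 Entrez identifiers matched the RefSeq table of GRCh38.p14, which gave current symbols. Of several probe sets of a gene (779 genes) the one with the highest mean was used. Log2 ratios were differences of the deposited values, computed with pandas 2.3.3 in Python 3.11.15, and no p-value was computed with 1 array per group. The counting was run on simulated data with set folds, which checks the code and not the counts reported here.

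The genes named are WDR5, the importins and up to 4 genes per transport list ranked by the smaller absolute ratio. Also named are the nearest 2 array genes with a symbol on each side of each importin, and the 6 genes nearest to KPNA5. Others are identified as named after their values were seen. The members and lists were chosen with earlier results of these data known. The alternatives were quantile normalization, median centring, no filter, a 75th percentile filter, the mean of probe sets, a floor at the background median (4.61), and 1.3-fold or 2-fold limits.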

Additional observations from a re-analysis of the deposited data

Results flagged for a closer look

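The genes listed here were on opposite sides of control with WDR5 siRNA-1 and WDR5 siRNA-2. Each siRNA has 1 array, so these differences were not tested, and 25.2% of kept genes were opposite in the same way. Among the importins, KPNA4 had log2 ratios of 0.30 and -0.41, a difference of 0.71 between siRNA-1 and siRNA-2. For KPNB1 the difference was 0.18, from ratios of 0.09 and -0.09, the second of which was 0.0095 with quantile normalization.

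Among the other import receptors, RANBP6 differed by 1.13 (0.45 and -0.68) and IPO11 by 0.88 (0.18 and -0.70). The nucleoporin gene NUP58 differed by -1.52, with ratios of -1.10 and 0.42. RANBP3 of the RAN cycle differed by 0.32 and the actin exporter gene XPO6 by -0.23.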

How the results depend on the processing

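No paired analysis was possible because each group holds 1 array. Leaving out a replicate was not possible for the same reason. KPNA5 was the 1 importin at 1.5-fold with both siRNAs under quantile normalization, median centring, no filter and the 75th percentile filter, and the 1 at the 2-fold limit. The mean of probe sets and the background floor could not change an importin, since each has 1 probe set and none lay below the floor. At 1.3-fold there were 2, KPNA5 and KPNA3. Of the importins' log2 ratios, quantile normalization moved the largest mover by 0.0994, and median centring by 0.0125. The one change of sign was KPNB1 with siRNA-2 (0.0095 under quantile normalization).

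Over all kept genes the counts followed the limits and the number of genes tested. At 1.3-fold, 134 genes were higher and 197 lower with both siRNAs, 442 higher and 713 lower with siRNA-1, 374 higher and 654 lower with siRNA-2, and 726 higher and 704 lower when siRNA-1 was set against siRNA-2. At 2-fold these counts were 6 and 7, 39 and 83, 29 and 49, and 70 and 97. The 75th percentile filter, which keeps fewer genes, left 30 lower with both, 98 higher and 181 lower with siRNA-1, 154 lower with siRNA-2, and 168 higher and 206 lower between the siRNAs. The wide range of the background rows limits the fold of any gene with a compared level within it. For KPNA5 that was the control level, and for WDR5 and GLE1 the levels with the WDR5 siRNAs.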
